A study of Mus musculus with 24 samples.

Results

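De novo lipogenesis, the making of fatty acids from acetyl-CoA, and the supply of its reductant NADPH were followed through 10 genes in mouse liver. The members are Acly, Acss2, Acaca, Acacb, Fasn, Thrsp, Mid1ip1, Me1, G6pdx and Pgd. They were chosen by name with earlier results of these data known, so shares over all genes beside their counts are a description. They are 10 of 37324 gene symbols on the array and were read by 26 probes, of which 23 passed the filter on dim probes. Each gene is given by its brightest probe, and all 10 were among the 21495 genes tested. Liver RNA of 24 male mice, all 12 weeks old, was hybridised to 1 array per mouse, with 6 mice in each of 4 groups named by genotype and feeding. LKO mice carried floxed alleles of Pik3ca, the gene of the PI3K catalytic subunit p110α, and albumin-Cre, which removes exons 18 and 19 in hepatocytes. LWT mice were littermates with the same floxed alleles and no Cre, so the presence of Cre and the loss of p110α cannot be told apart here. LWT_Fed and LKO_Fed mice ate freely, LWT_Fasted and LKO_Fasted mice had no food for 24 h, and all were killed at ZT16, which is 16 h after lights on. RNA came from whole liver, in which other cell types keep the intact gene, and fewer cells of a type cannot be told apart from less RNA per cell.

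In the fed liver, insulin and dietary carbohydrate drive lipogenesis, largely through the transcription factors SREBP-1c and ChREBP. Citrate exported from mitochondria is cleaved to cytosolic acetyl-CoA by ATP citrate lyase (Acly), and acetyl-CoA synthetase (Acss2) makes the same product from acetate. Acetyl-CoA carboxylases 1 and 2 (Acaca and Acacb) form malonyl-CoA, which fatty acid synthase (Fasn) builds into palmitate with NADPH. Malic enzyme (Me1) and the dehydrogenases of the pentose phosphate pathway (G6pdx and Pgd) are sources of this NADPH. Thrsp (Spot14) and its paralog Mid1ip1 are small proteins that act on acetyl-CoA carboxylase.

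The members' promoters are shown because the genes moved together and because CCAAT elements, bound by NF-Y, are known partners of SREBP sites. RefSeq windows of 300 bases, 250 before to 50 after an annotated start (GRCm38.p6), were found for all 10 genes and numbered 12, since Me1 and Pgd have several starts. The letters CCAAT, read on both strands, occurred in 7 of 12 member windows (58.3%) and in 37.4% of all 32851 windows. The GC box GGGCGG occurred in 6 of 12 (50%) and in 35.7% of all windows. The SREBP site TCACNCCAC and the E-box CACGTG were in 0 of the 12 windows, against 1.24% and 7.15% of all windows. These are counts of letters in short windows and say nothing of binding. The 130 bases before the start are given 5′ to 3′ for 5 members with CCAAT there, with CCAAT or its reverse complement in capitals.
Fasn, chr11:120824548-120824677, minus strand: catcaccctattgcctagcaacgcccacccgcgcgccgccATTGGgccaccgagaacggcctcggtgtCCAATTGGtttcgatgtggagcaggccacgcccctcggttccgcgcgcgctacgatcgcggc
Thrsp, chr7:97417551-97417680, minus strand: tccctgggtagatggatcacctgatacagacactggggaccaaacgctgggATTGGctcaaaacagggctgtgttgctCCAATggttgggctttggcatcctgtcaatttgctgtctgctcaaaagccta
Pgd, chr4:149166706-149166835, minus strand: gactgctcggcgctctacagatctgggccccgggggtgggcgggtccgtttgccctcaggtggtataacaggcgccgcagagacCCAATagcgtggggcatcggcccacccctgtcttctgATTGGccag
Acss2, chr2:155517913-155518042, plus strand: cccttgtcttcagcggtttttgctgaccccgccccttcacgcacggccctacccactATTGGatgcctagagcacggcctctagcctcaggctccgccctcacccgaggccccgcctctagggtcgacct
Acacb, chr5:114165388-114165517, plus strand: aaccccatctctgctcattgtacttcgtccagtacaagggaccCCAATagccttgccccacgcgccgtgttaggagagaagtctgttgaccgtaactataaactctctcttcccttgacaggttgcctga
In Fasn the element occurs 3 times, at -90, -62 and -59 from the start, the last 2 overlapping on opposite strands. In Thrsp it lies at -79 and -52, in Pgd at -46 and -9, in Acss2 at -73 and in Acacb at -87.

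Spots above background made up 54.7% to 63.0% of an array, no spot was saturated, and the members' representative probes were well above background on all 24 arrays. Markers of hepatocytes were above background on all arrays for 10 of 10 genes. The model weights each array by how well it fits, and weights ran from 0.32 for LWT_Fed replicate 3 to 1.74. That replicate was the highest of its group for 9 of 10 members. LKO_Fasted replicates 1 and 2 deviated from their group mean together (r = 0.54 across the genes tested), and values without both are given where they matter. In the other groups the highest such r was 0.31, in LWT_Fasted. The r of these 2 replicates with the 4 others was -0.50 to -0.29. Deviations from a group's own mean correlate negatively on average, and r reached -0.465 in LWT_Fed. The Pik3ca probe (mm9 chr3:32364747-32364806) starts at base 6255 of NM_008839, outside the deleted exons, and therefore does not check the genotype. Its median log2 signal was 11.88 in LWT_Fed (11.71 to 12.25), 12.49 in LKO_Fed (12.30 to 13.02), 12.32 in LWT_Fasted (12.05 to 12.42) and 12.27 in LKO_Fasted (12.03 to 12.50). All LKO_Fed arrays lay above all LWT_Fed arrays, by 0.58 on average (SE 0.113, adjusted p = 0.00146), and in fasted mice the log2 value differed by -0.02 (adjusted p = 0.93).

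Fasting lowered every member in LWT mice. All 10 of 10 were called lower, meaning a limma p, adjusted over every probe kept, of 0.05 or less together with a fold change above 1.5, where 5.22% of all genes were called lower. The decreases ran from 2.24-fold for Acacb to 18.9-fold for Thrsp, with a median log2 fold change of -1.96 against -0.0074 over all genes. For each of the 10, all 6 fasted mice lay below all 6 fed mice, which held for 10.7% of all genes. Within each slide, with 2 mice per group, the differences ran from -4.77 to -0.95, their sign being fixed by this separation. In LKO mice fasting lowered 8 of 10 members, where 6.88% of all genes were called lower, with a median of -1.56 and no overlap between fed and fasted mice for 7 (11.2% of all genes). Acacb and Me1 were the exceptions. Some markers of other cells were called with fasting as well. The stellate cell marker Lrat was at -0.90 in LWT and -0.96 in LKO, the cholangiocyte marker Krt19 at -0.67 and -0.59, and in LKO the cholangiocyte marker Spp1 at -0.95 and the adipocyte marker Fabp4 at 0.83. Others of these lists had the opposite sign with an adjusted p under 0.05 at under 1.5-fold, the cholangiocyte marker Sox9 at 0.55 in LWT and 0.58 in LKO, the stellate marker Dcn at 0.25 in each, and the adipocyte marker Lep at -0.28 in LKO. As the log2 of the markers' added signals, which the brightest marker dominates, stellate levels were 14.70 to 15.04 in LWT_Fed, 14.98 to 15.21 in LWT_Fasted, 14.63 to 15.12 in LKO_Fed and 14.71 to 15.40 in LKO_Fasted. In the same order cholangiocyte levels were 11.03 to 11.74, 10.75 to 11.10, 9.61 to 10.84 and 8.99 to 10.20, and adipocyte levels 11.05 to 11.36, 10.32 to 12.79, 10.36 to 10.86 and 10.79 to 11.83. Their part in the members' fasting changes was not tested.

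**Figure D1:**
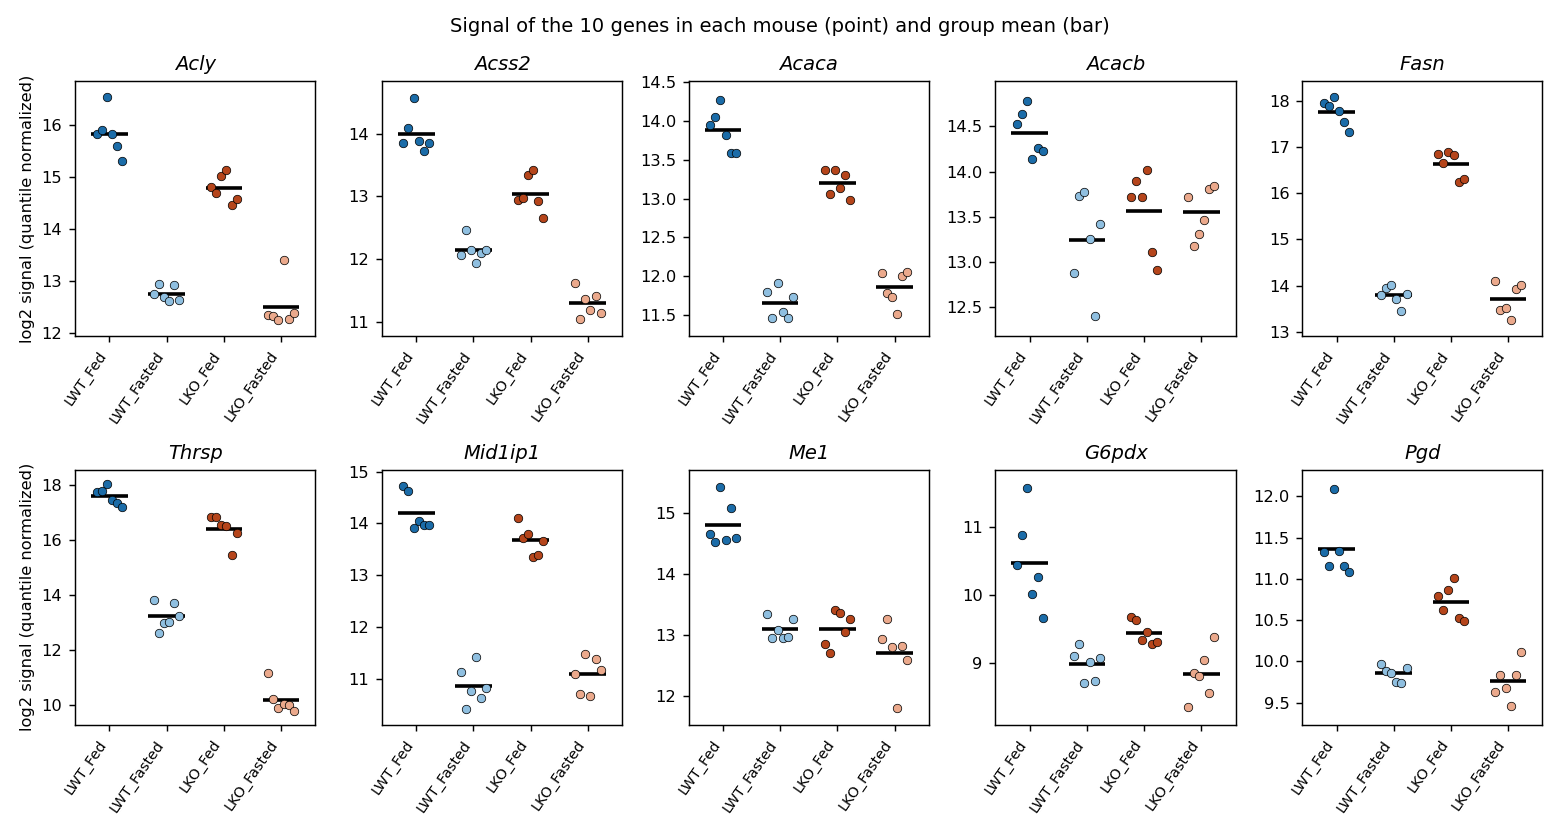
Quantile-normalized log2 signal (y axis) of the brightest probe of each gene in every mouse (points, 6 per group) and the group mean (horizontal bar), with a separate scale for each gene. For all 10 genes the LWT_Fasted points lie below the LWT_Fed points. For Thrsp the LKO_Fasted points, from 9.79 to 11.17, lie below those of every other group.

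In fed mice, the members were lower in LKO than in LWT. Of the 10, 7 were called lower, against 1.18% of all genes, and all 10 had an adjusted p of at most 0.05 with the sign negative, against 7.60% of all genes. The median log2 fold change was -0.83, against -0.014 over all genes, and ran from -1.61 for Me1 to -0.51 for Pgd. For 8 members all 6 LKO_Fed mice lay below all 6 LWT_Fed mice, which held for 3.33% of all genes. The genes that missed the call did so on size, at 1.497-fold for Acaca, 1.44-fold for Mid1ip1 and 1.42-fold for Pgd. Within slides all 10 differences were negative, from -2.27 to -0.25, which for the 8 members without overlap follows from that separation. The share of all genes with this pattern was not counted. Markers of other cells moved in this comparison too, with 1 gene called lower in each of 4 lists. The level of 5 measured adipocyte markers, of 6 listed, as the log2 of their added signals, was 11.05 to 11.36 in LWT_Fed and 10.36 to 10.86 in LKO_Fed, with Cfd called lower (-2.76, adjusted p = 0.0123) and the defining marker Adipoq above background on 11 of 24 arrays. That of 5 cholangiocyte markers was 11.03 to 11.74 and 9.61 to 10.84, with Spp1 called lower (-1.50, adjusted p = 0.00025). The endothelial marker Lyve1 was at -0.88 (adjusted p = 0.0405), with a list sum of 14.41 to 14.68 in LWT_Fed and 14.01 to 14.73 in LKO_Fed, and the erythroid marker Alas2 at -0.80 (adjusted p = 0.00167), with sums of 14.78 to 15.51 and 14.35 to 16.22. The part of these cells in the members' differences was not tested. The hepatocyte sum was 21.12 to 21.19 in LWT_Fed and 21.17 to 21.20 in LKO_Fed. Quantile normalization gives every array the same set of values, so a sum of very bright markers cannot show whether hepatocyte content differed.

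In fasted mice, 2 of 10 members were lower in LKO than in LWT, Thrsp and Acss2, where 2.28% of all genes were called lower. The median of the 10 was -0.11. The change with fasting itself was compared by the interaction, in which the log2 fasting change of LWT mice is subtracted from that of LKO mice. It was called higher, meaning a smaller decrease in LKO, for 5 members (Acaca, Acacb, Fasn, Me1 and Mid1ip1) where 1.55% of all genes were called higher, and lower for Thrsp where 1.55% were called lower. Its median over the members was 0.71. Beside the fasted comparison, the cholangiocyte sum was 10.75 to 11.10 in LWT_Fasted and 8.99 to 10.20 in LKO_Fasted, with Spp1 at -2.10 (adjusted p = 5.49e-06), and the adipocyte sum was 10.32 to 12.79 and 10.79 to 11.83, with Cfd at -3.00 (adjusted p = 0.008) and Fabp4 called in the other direction, at 0.62 (adjusted p = 0.0125). The erythroid marker Alas2 was at -0.83 (adjusted p = 0.00128) and Hbb-bt at 0.47 (adjusted p = 0.475), and the erythroid sums overlapped, at 13.91 to 15.53 in LWT_Fasted and 14.29 to 15.54 in LKO_Fasted. Among these lists the interaction was called for Fabp4, at 1.07 (adjusted p = 0.0076). Their part in the fasted differences and the interaction was not tested. Because the comparisons share their groups, a lower LKO_Fed value enters both the fed difference and the interaction.

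**Figure D2:**
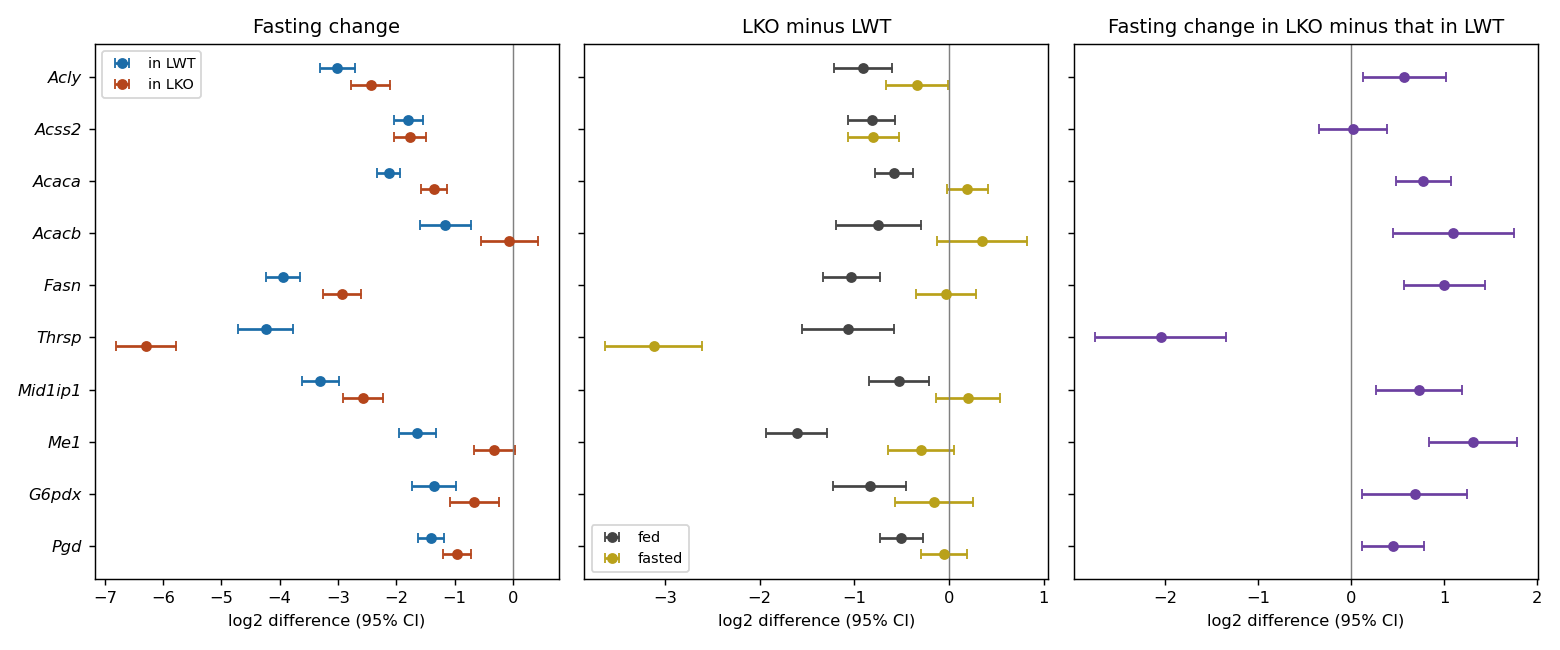
Log2 differences of the 10 genes with 95% confidence intervals from the model (x axis, n = 6 mice per group): fasting change in each genotype (left), LKO minus LWT in each feeding state (middle) and the difference of the fasting changes (right). The fed differences are all below 0, whereas the fasted differences lie on both sides of 0, with Thrsp at -3.12 and Acss2 at -0.80 called.

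Acly and Acss2, the sources of cytosolic acetyl-CoA, were both called lower with fasting in each genotype and lower in fed LKO than in fed LWT. Acly (mm9 chr11:100337674-100337733, NM_001199296) had a median log2 signal of 15.83 in LWT_Fed (15.32 to 16.54), 14.75 in LKO_Fed (14.46 to 15.14), 12.72 in LWT_Fasted (12.62 to 12.94) and 12.34 in LKO_Fasted (12.25 to 13.40). Fed LKO mice lay below fed LWT mice without overlap, and the fasted groups overlapped only through LKO_Fasted replicate 4, the highest fasted LKO mouse. Fasting lowered Acly 8.07-fold in LWT (log2 -3.01, SE 0.145, adjusted p = 1.61e-12) and 5.43-fold in LKO (-2.44, SE 0.16, adjusted p = 1.01e-10). The fed difference was -0.91 (SE 0.148, adjusted p = 0.000337). The fasted difference of -0.34 was not called (adjusted p = 0.136), but passed the adjusted p without LKO_Fasted replicate 4 (-0.43, adjusted p = 0.029). The interaction was 0.57 (95% CI 0.12 to 1.02, adjusted p = 0.11), and without LWT_Fed replicate 6 it was 0.68 (adjusted p = 0.0395). The fasted difference and the interaction each passed in only 1 of the 24 fits that leave out 1 mouse. A dimmer second probe gave -2.01 with fasting in LWT and -0.74 between fed genotypes. Its fasted difference was -0.08 (adjusted p = 0.82) and its interaction 0.66 (adjusted p = 0.117).

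Acss2 kept its genotype difference in the fasted state. Its probe (mm9 chr2:155388385-155388444, NM_019811) had medians of 13.87 in LWT_Fed (13.73 to 14.57), 12.96 in LKO_Fed (12.65 to 13.43), 12.12 in LWT_Fasted (11.93 to 12.47) and 11.27 in LKO_Fasted (11.04 to 11.61). The 4 groups did not overlap. LKO was lower by 0.82 in fed mice (SE 0.122, adjusted p = 0.000171) and by 0.80 in fasted mice (SE 0.129, adjusted p = 0.000175). The fasting decreases were 3.46-fold in LWT and 3.42-fold in LKO, and their difference on the log2 scale was 0.02 with a 95% interval from -0.35 to 0.39. A second probe of the same transcript gave -0.87 in fed and -0.90 in fasted mice. The 2 probes of another transcript (ENSMUST00000149788) gave -0.11 and -0.18 in fasted mice (adjusted p = 0.805 and 0.351), so the fasted call rests on the probes of NM_019811. In fed mice both gave -0.61, with an adjusted p of 0.0677 for the brighter and 0.00122 for the dimmer, and their interactions were 0.51 (adjusted p = 0.376) and 0.43 (adjusted p = 0.124).

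Acaca, the cytosolic carboxylase that feeds fatty acid synthase, responded less to fasting in LKO. The probe (mm9 chr11:84215093-84215152, NM_133360) had medians of 13.88 in LWT_Fed (13.59 to 14.27), 13.22 in LKO_Fed (12.98 to 13.37), 11.64 in LWT_Fasted (11.47 to 11.92) and 11.89 in LKO_Fasted (11.52 to 12.06). Fasting lowered it 4.38-fold in LWT (SE of the log2 value 0.0955, adjusted p = 6.28e-13) and 2.56-fold in LKO (SE 0.106, adjusted p = 1.2e-09). The fed difference was -0.58 (SE 0.0977, adjusted p = 0.000445) without overlap, and the fasted one 0.19 (adjusted p = 0.21). The interaction was 0.77 (SE 0.142, adjusted p = 0.00211). For the next 2 Acaca probes by brightness, above background on all arrays, the log2 fasting change in LWT was -1.92 and -1.57, and the interaction was 0.41 (adjusted p = 0.141) and 0.56 (adjusted p = 0.0103, under 1.5-fold). The other 3 probes kept were above background on all fed arrays but on only 3, 2 and 0 of 6 LWT_Fasted arrays and 4, 4 and 0 of 6 LKO_Fasted arrays, so their fasting changes and interactions are not given.

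Acacb encodes the carboxylase at the mitochondrial surface, whose malonyl-CoA restrains fatty acid oxidation. A fasting change was called in LWT and not in LKO. Medians of its probe (mm9 chr5:114700702-114700761, NM_133904) were 14.39 in LWT_Fed (14.14 to 14.78), 13.72 in LKO_Fed (12.91 to 14.02), 13.34 in LWT_Fasted (12.40 to 13.77) and 13.59 in LKO_Fasted (13.18 to 13.84). The fed LWT mice lay above all others, and the other 3 groups overlapped. Fasting lowered Acacb by 1.16 in LWT (SE 0.211, adjusted p = 0.000125), while in LKO the difference was -0.06 (95% CI -0.55 to 0.42, adjusted p = 0.86). The fed difference was -0.75 (SE 0.216, adjusted p = 0.0217) and the interaction 1.099 (SE 0.314, adjusted p = 0.0361). The remaining Acacb probes, which are above background on all arrays at log2 signals near 7.5 and 6.6, were not called in these comparisons. For these probes the fasting difference in LWT was -0.21 and 0.03, the fed difference -0.13 for each, and the interaction 0.08 and 0.23. The Acacb calls thus rest on 1 probe of 3. Without LKO_Fed replicate 5 or 6 or LWT_Fed replicate 5 the fed difference had an adjusted p of 0.0502, 0.0514 and 0.0527. The interaction exceeded 0.05 in 9 of the 24 fits that leave out 1 mouse (adjusted p up to 0.0785).

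Fasn encodes the enzyme that assembles palmitate. Its probe (mm9 chr11:120668460-120668519, NM_007988) had medians of 17.83 in LWT_Fed (17.33 to 18.08), 16.74 in LKO_Fed (16.25 to 16.88), 13.82 in LWT_Fasted (13.45 to 14.02) and 13.72 in LKO_Fasted (13.25 to 14.11). Fed groups were separate and fasted groups overlapped throughout. Fasting lowered Fasn 15.4-fold in LWT (SE of the log2 value 0.14, adjusted p = 2.09e-14) and 7.66-fold in LKO (SE 0.155, adjusted p = 3.65e-12). Fed LKO mice were 2.05-fold lower than fed LWT mice, and the fasted difference was -0.03 with a 95% interval from -0.35 to 0.29. The interaction was 1.004 (SE 0.209, adjusted p = 0.00553), and the fed difference from which it is taken was -1.03.

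Thrsp was lower with fasting in both genotypes, as most members were, and its interaction was negative. Its probe (mm9 chr7:104561649-104561708, NM_009381) had medians of 17.59 in LWT_Fed (17.19 to 18.03), 16.52 in LKO_Fed (15.44 to 16.81), 13.11 in LWT_Fasted (12.61 to 13.82) and 10.03 in LKO_Fasted (9.79 to 11.17). No mouse of any group overlapped with another group. Fasting lowered Thrsp 18.9-fold in LWT (SE of the log2 value 0.227, adjusted p = 7.69e-12) and 78.4-fold in LKO (SE 0.251, adjusted p = 7.85e-14). LKO was lower by 1.07 in fed mice (SE 0.232, adjusted p = 0.00329) and by 3.12 in fasted mice (SE 0.247, adjusted p = 4.13e-08). The interaction was -2.05 (SE 0.339, adjusted p = 0.000869), the only negative one called among the members. A second probe of the transcript (mm9 chr7:104565562-104565621) gave -4.59 and -6.40 with fasting, -1.38 and -3.19 between genotypes and -1.81 for the interaction. Without LKO_Fasted replicates 1 and 2 the fasted difference was -3.39 and the interaction -2.32 (adjusted p = 5.67e-05).

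Mid1ip1, the paralog of Thrsp, had an interaction of the opposite sign. The medians of its probe (mm9 chrX:10296703-10296762, NM_001166635) were 14.01 in LWT_Fed (13.92 to 14.72), 13.69 in LKO_Fed (13.36 to 14.10), 10.80 in LWT_Fasted (10.43 to 11.42) and 11.14 in LKO_Fasted (10.68 to 11.48). Genotypes overlapped in both feeding states. Fasting lowered Mid1ip1 9.86-fold in LWT (SE of the log2 value 0.15, adjusted p = 6.59e-13) and 5.94-fold in LKO (SE 0.166, adjusted p = 8.35e-11). The fed difference was -0.53 (SE 0.154, adjusted p = 0.0227), the fasted one 0.20 (adjusted p = 0.423) and the interaction 0.73 (SE 0.224, adjusted p = 0.0489). This interaction lay close to the threshold, with an adjusted p from 0.0061 to 0.103 over the fits that leave out 1 mouse, above 0.05 in 16 of 24. In the same fits the fed difference exceeded 0.05 without LKO_Fed replicate 4 or 5 or LWT_Fed replicate 1 or 5, with an adjusted p of at most 0.064.

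**Figure D3:**
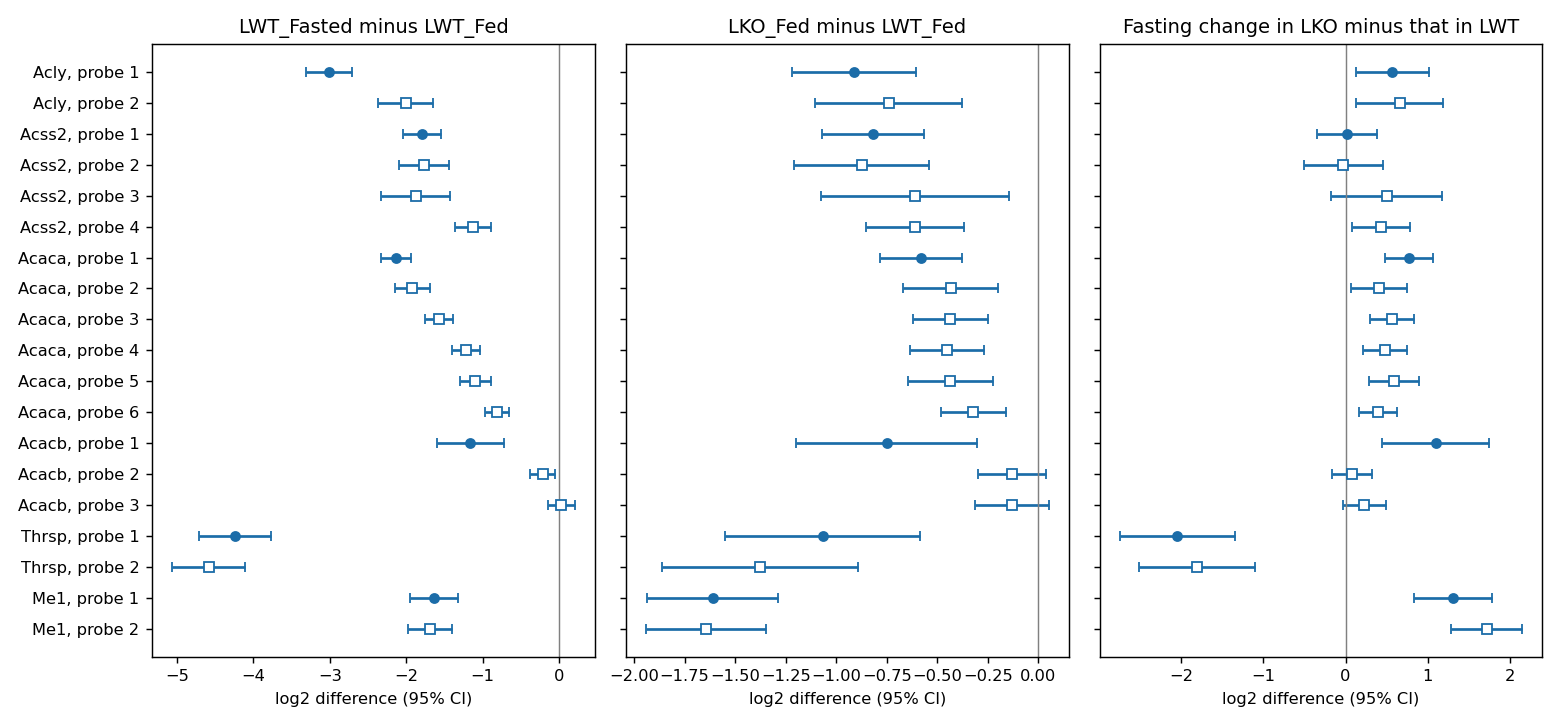
Log2 differences with 95% confidence intervals (x axis) for every probe that passed the filter, for the 6 genes that have more than 1, numbered by brightness (filled circle, brightest probe; open square, other probes). The probes of Thrsp, Me1 and Acly lie on the same side of 0 in all 3 panels, whereas the dimmer probes of Acacb lie near 0, at -0.21 and 0.03 with fasting in LWT. Acaca probes 4 to 6 are not above background on some or all fasted arrays, so their points in the left and right panels are not exact.

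Among the NADPH sources, Me1 had the largest fed difference of the 10 members. Its probe (mm9 chr9:86480571-86480630, NM_001198933) had medians of 14.63 in LWT_Fed (14.53 to 15.43), 13.15 in LKO_Fed (12.70 to 13.41), 13.03 in LWT_Fasted (12.95 to 13.34) and 12.81 in LKO_Fasted (11.80 to 13.26). Fed LWT mice lay above all other mice, while the other 3 groups overlapped. Me1 was 3.05-fold lower in LKO_Fed than in LWT_Fed (log2 -1.61, SE 0.157, adjusted p = 1.67e-06). Fasting lowered it 3.11-fold in LWT (SE 0.153, adjusted p = 2.4e-08), and in LKO the difference was -0.33 (95% CI -0.68 to 0.03, adjusted p = 0.131). Without LKO_Fed replicate 2 that difference was -0.42 with an adjusted p of 0.0391. The interaction was 1.31 (SE 0.228, adjusted p = 0.00131). A second probe (mm9 chr9:86475077-86475136) gave -1.64 for the fed difference, 0.03 for fasting in LKO and 1.72 for the interaction.

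G6pdx and Pgd, which make NADPH in the pentose phosphate pathway, were called lower with fasting in both genotypes. For G6pdx (mm9 chrX:71654949-71655008, NM_008062) the medians were 10.35 in LWT_Fed (9.66 to 11.58), 9.39 in LKO_Fed (9.28 to 9.68), 9.05 in LWT_Fasted (8.70 to 9.28) and 8.83 in LKO_Fasted (8.35 to 9.38). LWT_Fed mice spread over the widest range of any member, and 1 of them reached down to the highest LKO_Fed mouse. Fasting lowered G6pdx by 1.35 in LWT (SE 0.183, adjusted p = 3.88e-06) and by 0.66 in LKO (SE 0.202, adjusted p = 0.0111). The decrease in LKO was no longer called without LKO_Fasted replicates 1 and 2, at -0.57 (adjusted p = 0.0621). The fed difference was -0.84 (SE 0.187, adjusted p = 0.00381), and the interaction of 0.68 was not called (adjusted p = 0.13).

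For Pgd (mm9 chr4:148524293-148524352, NM_001081274) the medians were 11.24 in LWT_Fed (11.08 to 12.09), 10.70 in LKO_Fed (10.49 to 11.01), 9.87 in LWT_Fasted (9.74 to 9.97) and 9.75 in LKO_Fasted (9.46 to 10.11). Fed groups were separate by a narrow gap, and the fasted groups overlapped. Fasting lowered Pgd 2.66-fold in LWT (SE of the log2 value 0.108, adjusted p = 1.23e-09) and 1.95-fold in LKO (SE 0.119, adjusted p = 1.03e-06). The fed difference was -0.51 (SE 0.11, adjusted p = 0.00333) and the interaction 0.45 (adjusted p = 0.0912). The other Pgd probes, 2 in number, were dim and did not pass the filter.

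To place the fed LKO liver between the fed and the fasted LWT liver, the fed genotype difference was set against the LWT fasting change. The share of the log2 distance was 98.4% for Me1, 64.5% for Acacb and 62.4% for G6pdx, 45.7% for Acss2, 35.9% for Pgd, 30.3% for Acly, 27.3% for Acaca, 26.2% for Fasn and 25.2% for Thrsp, and 16% for Mid1ip1. Both quantities share the LWT_Fed mice, so the shares are a description. Tested directly, LKO_Fed was called higher than LWT_Fasted for 7 of 10 members, where 6.15% of all genes were called higher, by 0.90 for Pgd up to 3.18 for Thrsp. Markers of other cells called in this comparison were Cfd (-3.61), Lyve1 (-1.07), Spp1 (-1.15), Sox9 of cholangiocytes (-0.73) and Lrat (0.82), while the stellate marker Dcn was at -0.25 (adjusted p = 0.0321) and the endothelial markers Kdr and Cdh5 were at 0.22 and 0.14 (adjusted p = 0.19 and 0.475). The added stellate level was 14.63 to 15.12 in LKO_Fed and 14.98 to 15.21 in LWT_Fasted, the endothelial 14.01 to 14.73 and 13.69 to 14.86, the cholangiocyte 9.61 to 10.84 and 10.75 to 11.10, and the adipocyte 10.36 to 10.86 and 10.32 to 12.79. Their part in it was not tested. The genes not called were Me1, at 0.03 (95% CI -0.30 to 0.35, adjusted p = 0.908), Acacb, at 0.41 (95% CI -0.04 to 0.86, adjusted p = 0.135), and G6pdx, at 0.51 (95% CI 0.12 to 0.90, adjusted p = 0.0338), a difference under 1.5-fold. Over the fits that leave out 1 mouse the Acacb value ran from 0.20 without LWT_Fasted replicate 5 to 0.56 without LWT_Fasted replicate 3, and without LKO_Fed replicate 6 it was 0.55 (adjusted p = 0.0391). That of G6pdx ran from 0.42 to 0.58, with an adjusted p above 0.05 in 7 of 24. The Acacb share above also rests on 1 probe of 3.

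**Figure D4:**
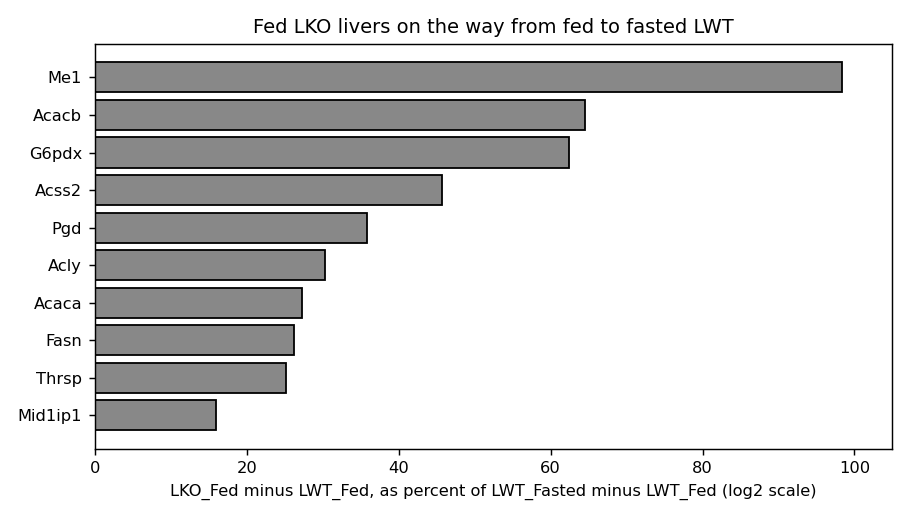
LKO_Fed minus LWT_Fed as a percent of LWT_Fasted minus LWT_Fed (x axis, both on the log2 scale) for each of the 10 genes (bars); at 0 fed LKO livers would equal fed LWT livers, and at 100 they would equal fasted LWT livers. Me1 stands at 98.4% and Mid1ip1 at 16%.

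Members were also compared between mice of a group. Over the deviations of the 24 arrays from their group means, 39 of 45 pairs of members correlated above 0, with a median r of 0.33, where 50% of all pairs of genes did so with a median r of 0. Without LWT_Fed replicate 3, the highest mouse of its group for 9 members, it was 37 of 45 with a median of 0.235 (an alternative chosen after seeing the data). With all mice, the highest were Acaca with Fasn (r = 0.76), Acacb with Fasn (r = 0.76) and G6pdx with Pgd (r = 0.64), and the lowest was Acly with Mid1ip1 (r = -0.28). These points share array, slide and normalization and are given as a description. The mean of the members, each scaled to mean 0 and SD 1 over the arrays, was 0.945 to 1.818 in LWT_Fed, 0.105 to 0.543 in LKO_Fed, -0.954 to -0.623 in LWT_Fasted and -1.082 to -0.748 in LKO_Fasted. Fed groups were apart on this mean and fasted groups overlapped. The non-member genes whose signal over the 24 arrays was most like this mean were Pnpla5 (r = 0.98), Rab23 (r = 0.98), the transcript ENSMUST00000098589 (r = 0.98), Pnpla3 (r = 0.97), Rdh11 (r = 0.97), Gm31872 (r = 0.97), Slc2a4 (r = 0.97), 1810008I18Rik (r = 0.97), Pdzk1ip1 (r = 0.97) and Echdc1 (r = 0.97). Of the members themselves, each of which enters the mean, Pgd was closest to it (r = 0.98) and Acacb farthest (r = 0.75). These r values span the 4 groups and so include the group differences.

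Over all 21495 genes, 1123 were called lower and 1032 higher with fasting in LWT, 1478 and 1269 with fasting in LKO, and 254 and 569 in fed LKO against fed LWT. Srebf1, which encodes SREBP-1c, changed with fasting by -2.76 in LWT (SE 0.125, adjusted p = 6.28e-13) and by -2.82 in LKO (SE 0.138, adjusted p = 1.38e-12). Its genotype difference was -0.62 in fed (SE 0.127, adjusted p = 0.00208) and -0.69 in fasted mice (SE 0.135, adjusted p = 0.00101), with an interaction of -0.06 (adjusted p = 0.878). Mlxipl, which encodes ChREBP, changed with fasting by -0.92 in LWT and -0.81 in LKO, and its genotype differences were -0.07 in fed (adjusted p = 0.634) and 0.04 in fasted mice (adjusted p = 0.817). Of 16 genes of transcriptional control, 3 were called lower in fed LKO and 0 higher, with a median of -0.03. They were Srebf1, Insig2, whose product retains SREBP in the endoplasmic reticulum (-0.63, adjusted p = 0.00123), and Pparg, a lipid-activated receptor (-1.02, adjusted p = 0.0107). With fasting in LWT, 3 were called lower and 2 higher, the former including Insig1, itself an SREBP target (-2.11, adjusted p = 9.03e-08), the latter Insig2 (1.93, adjusted p = 5.4e-11) and Ppargc1b (1.11, adjusted p = 1.44e-07). In LKO the same counts, 3 lower and 2 higher, were called.

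Later steps of fatty acid synthesis, 15 genes of desaturation, elongation and activation, split in direction. With fasting in LWT, 5 were called lower and 1 higher (median -0.29), with the largest decrease in Elovl6, the elongase of palmitate (-3.55, SE 0.189, adjusted p = 7.17e-12). Fasting in LKO called 5 lower and 5 higher, among them Elovl5, an elongase of polyunsaturated fatty acids (1.73, adjusted p = 8.52e-10). In fed LKO, 3 were called lower (Scd1, the stearoyl-CoA desaturase, at -1.10, Elovl5 at -0.80 and Elovl6 at -1.21) and 1 higher (Elovl7 at 0.63). The interaction was called higher for 4 of 15, with 2.45 for Elovl6 (SE 0.281, adjusted p = 3.7e-05) and 1.499 for Elovl5 (SE 0.177, adjusted p = 4.13e-05). Elovl6 was also higher in LKO_Fasted than in LWT_Fasted, by 1.24 (adjusted p = 0.000206), and Scd1 lower, by 0.84 (adjusted p = 0.000953).

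Of 16 other NADPH and pentose phosphate enzymes, 15 were tested. In fed LKO only Rpia, ribose 5-phosphate isomerase, was called, at -0.89 (SE 0.134, adjusted p = 0.000193), and its interaction was 0.94 (SE 0.196, adjusted p = 0.00565). With fasting in LWT, Rpia (-1.26) and Tkt, transketolase (-0.85), were called lower and H6pd, the hexose 6-phosphate dehydrogenase of the endoplasmic reticulum, higher (0.71). In LKO, 2 were called lower and 2 higher. Of 16 genes of citrate and acetyl-CoA supply, 0 were called by limma in fed LKO, with a median of -0.18. By adjusted p alone 6 of the 16 were lower, where 7.60% of all genes were. These 6 were under 1.5-fold, from -0.48 for Slc25a10 to -0.23 for Pcx. Fasting called 3 lower and 2 higher in LWT, including Aacs, acetoacetyl-CoA synthetase (-2.77, adjusted p = 2.75e-07), Slc25a1, the mitochondrial citrate carrier (-0.65, adjusted p = 1.69e-06), and Pdk4, a kinase that inhibits pyruvate dehydrogenase (2.63, adjusted p = 1.93e-06). Pdk4 was also the gene of this list with a called interaction (1.70, adjusted p = 0.0423). Of 15 genes that control acetyl-CoA carboxylase and malonyl-CoA, 0 were called between genotypes in either feeding state. Fasting raised 3 of them in LWT: Cpt1a, the carnitine palmitoyltransferase that malonyl-CoA inhibits (1.27, adjusted p = 1.99e-11), Mlycd, malonyl-CoA decarboxylase (0.60, adjusted p = 1.58e-07), and Trib3 (1.22, adjusted p = 2.28e-06). In LKO the same 3 were called higher and Hlcs, which attaches biotin to carboxylases, lower (-0.65, adjusted p = 2.51e-05).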

How the data were processed

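Cy3-labelled liver RNA of 24 mice was hybridised to 1-colour Agilent SurePrint G3 mouse arrays and read with Agilent Feature Extraction 10.10.1.1, per the submitters' processing notes. Per the file headers, the values are median, mean and local background intensity of each spot and a processed intensity, with no scaling across arrays. A deposited table of log2 values for 32595 probes, which the authors filtered, corrected for washing bath and quantile normalized, served as an alternative. Bath and filter rule are not given in the sources used here. Its column medians were 8.061 to 8.065. Probe positions are mm9.

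Spots of 1 probe were averaged after outlier spots were left out (61 to 133 per array), leaving 90 missing probe values among 56605 probes. A probe needed a signal well above background on 5 or more of 6 arrays in some group, and 32197 probes met this. Log2 median signals were quantile normalized and fitted to 4 group means and slide, in place of the bath, with array weights (limma 3.58.1, R 4.3.3), over 3 slides with 2 arrays of every group each. Tests were two-sided, with Benjamini-Hochberg adjustment over these 32197 probes. The fit was tested on simulated data. SE and confidence intervals come from the model. Group values are unweighted. The number of arrays limits precision, and each mouse is 1 replicate.

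The members and lists were chosen with earlier results of these data known. All members, Pik3ca, Srebf1 and Mlxipl are named, at most 3 called genes per direction of each list by smallest adjusted p, and the 10 genes most like the members' mean. Alternatives covered background correction, scaling, filters, terms, weights, probe choice, thresholds and single mice left out. Motifs were counted with Python 3.11.15.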

Additional observations from a re-analysis of the deposited data

Results flagged for a closer look

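Outlying mice were sought with Dixon's criterion in 40 groups of 6 values, 10 genes by 4 groups, and 3 stood apart, where chance gives about 1 in 20 groups. They were Acly in LKO_Fasted replicate 4, at a log2 signal of 13.40 against 12.38 for the nearest of its group, Pgd in LWT_Fed replicate 3, at 12.09 against 11.34, and Thrsp in LKO_Fasted replicate 1, at 11.17 against 10.21. These arrays also had low or middling weights in the model, 0.355, 0.32 and 0.808 in that order. LWT_Fed replicate 3 was the highest of its group for 9 of 10 members, and LKO_Fasted replicate 4 the lowest of its group for 5.

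Fasting changes that differed between genotypes were those of Me1, at 1.31, Acacb, at 1.099, Fasn, at 1.004, Acaca, at 0.77, and Mid1ip1, at 0.73, all smaller decreases in LKO, and that of Thrsp, at -2.05, a larger decrease in LKO. Each was tested by the interaction in limma. Within each of 3 slides the sign was that of the whole, with ranges of 0.99 to 1.70 for Me1, 0.86 to 1.4 for Acacb, 0.80 to 1.18 for Fasn, 0.68 to 1.0 for Acaca, 0.33 to 1.41 for Mid1ip1 and -2.08 to -1.62 for Thrsp.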

How the results depend on the processing

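Over all alternatives to the 60 log2 fold changes (10 genes in 6 comparisons), 2071 values kept direction and side of the adjusted p threshold, 51 lost it, 6 gained it and 32 changed sign. With a minimum of 2-fold, 3 members were called lower in LKO_Fed against LWT_Fed and 1 in LKO_Fasted against LWT_Fasted. At that setting 101 and 127 of all 21495 genes were called lower. Other counts of members called stayed within 1.5 times the main count. Leaving out single mice gave 6 to 9 members called for LKO_Fed against LWT_Fed and 4 to 7 for the interaction. Over all 21495 genes those fits called 741 to 898 and 476 to 960. In every fit 10, 8, 2 and 7 members were called for fasting in LWT, fasting in LKO, the fasted genotype difference and LKO_Fed against LWT_Fasted. Over all genes, in the same order, 1961 to 2292, 2545 to 2979, 742 to 950 and 2349 to 2558 were called. Without LKO_Fasted replicates 1 and 2, chosen after seeing the data, 7, 7 and 5 were called for fasting in LKO, the fed difference and the interaction. Over all 21495 genes that fit called 3081, 826 and 1204, against 2747, 823 and 666 in the main fit. Its interactions called lower numbered 814, against 333. Mid1ip1 then had an interaction of 0.78 (adjusted p = 0.0502).

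All sign changes were in values that were not called. With the second brightest probe, fasting in LKO was 0.0297 for Me1, the fasted genotype difference was -0.0297 for Acaca, -0.0560 for Acacb and 0.0778 for Me1, and the interaction was -0.0263 for Acss2. Normexp background correction gave -0.0102 for the Acss2 interaction. For Me1, LKO_Fed against LWT_Fasted was -0.00035 with the processed signal, -0.0017 with no filter and -0.0011 with the replicate block. Acacb with fasting in LKO was 0.0078 without LKO_Fasted replicates 1 and 2. Single mice left out gave ranges of -0.189 to 0.0445 for Acacb with fasting in LKO, -0.12 to 0.0754 for the fasted Fasn difference, -0.0498 to 0.0824 for the Acss2 interaction and -0.0596 to 0.13 for Me1 in LKO_Fed against LWT_Fasted. The cause was not tested.

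The interactions of Acacb and Mid1ip1 lost the threshold with no filter on dim probes (adjusted p = 0.0673 and 0.0808) and with array row as a further term (0.0538 and 0.0618). The Acacb interaction did so without LKO_Fasted replicates 5 or 6, LKO_Fed replicates 5 or 6, LWT_Fasted replicates 1 or 5, or LWT_Fed replicates 1, 2 or 5. For Mid1ip1, the mice whose omission kept it were LKO_Fasted replicates 2 and 4, LKO_Fed replicates 1, 2 and 3, LWT_Fasted replicates 1 and 4, and LWT_Fed replicate 6. The labels do not say that replicate numbers pair mice. The same-number correlation over 36 pairs had a median of -0.032 (-0.172 to 0.295) and exceeded 0.1 in 4, which cannot exclude pairing. With the replicate block in place of slide, the interactions of Acly (0.63, adjusted p = 0.032) and Pgd (0.51, adjusted p = 0.0382) passed. Over all genes that fit called 843 interactions, against 666 in the main fit. Signal over background limits 3 Acaca probes, which were not above background on some or all fasted arrays.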
